A study of Mus musculus with 4 samples.

Results

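Acetylation of lysine 9 and lysine 14 of histone H3 (H3K9ac and H3K14ac) was mapped by ChIP-seq in mouse embryonic stem (mES) cells, and the long coding exons that lie far from any transcription start site (TSS) are described here. Chromatin was immunoprecipitated with the rabbit polyclonal antibody ab4441 against H3K9ac or with a mouse monoclonal antibody against H3K14ac, either 13HH3-1A5 (13HH3) or 7G8, and input DNA was sequenced without immunoprecipitation. The labels name the untreated line E14 of strain 129P2/OlaHsd for all 4 libraries, whereas the methods describe wild type cells derived from blastocysts and freed of feeder cells. Each antibody has 1 library, so no value below has a replicate and every interval covers counting error only.

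The exons were taken from the GENCODE annotation (release M1) of the mouse genome NCBIM37 (mm9). The coding parts of exons of protein-coding transcripts on chromosomes 1 to 19 were taken when 500 bp or longer and merged where they overlapped. They were kept when more than 5 kb from the TSS of any transcript. Merging coding parts of any length gave 195724 coding exons, and merging those of 500 bp or longer gave 8987. Of the latter, 5975 lay within 5 kb of a TSS, and 3012 remained. They belong to 2562 genes, of which 363 hold more than 1, and cover 3335854 bp. The rule does not require an intron on both sides: 1298 are internal, 1566 hold the end of the coding sequence, and 148 its start but not its end. An exon with both start and end counts among the 1566. The word "internal" thus fits only a part of them. The median length was 870 bp, up to 17106 bp, and the median distance to the nearest TSS was 13416 bp, up to 412907 bp.

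Acetylation of the histone H3 tail is placed by acetyltransferases such as GCN5 and PCAF, removed by deacetylases, and is best known from active promoters and enhancers. Coding exons differ from introns in other ways as well. They are richer in G and C, many hold more CpG dinucleotides, and nucleosomes are often reported to sit on them, while short reads from GC-rich DNA are recovered with another efficiency than those from AT-rich DNA. A tag density over an exon is therefore a mixture of the mark, the DNA and the sequencing, and input and DNA of the same composition serve as the measures of the latter.

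The exons were GC-rich. Their median GC content was 51.8% (32.5% to 79.0%), against 42.8% in the 1 kb on each side, and 2943 of the 3012 (97.7%) were above their own flanks. The median ratio of observed to expected CpG was 0.35. To show the range, 180 bases from the middle of 8 exons are printed, all coding and read from NCBIM37 on the strand of the gene, with every CpG in capitals. Marveld3, Chst5, Basp1 and Xkr6 stood at the high end of at least 1 of the ratios to input described below, Spnb4 at the low end of the 13HH3 to H3K9ac ratio and Tiam2 and Sdr42e1 at the low end for H3K9ac, and Ttn is the longest. The stretches hold 11, 18, 34, 9, 25, 3, 7 and 1 CpG in that order.
Marveld3, chr8:112472155-112472334, minus strand: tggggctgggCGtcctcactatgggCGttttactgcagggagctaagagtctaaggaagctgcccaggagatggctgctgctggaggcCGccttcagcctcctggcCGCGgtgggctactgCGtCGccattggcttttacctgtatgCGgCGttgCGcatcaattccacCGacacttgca
Chst5, chr8:114414204-114414383, minus strand: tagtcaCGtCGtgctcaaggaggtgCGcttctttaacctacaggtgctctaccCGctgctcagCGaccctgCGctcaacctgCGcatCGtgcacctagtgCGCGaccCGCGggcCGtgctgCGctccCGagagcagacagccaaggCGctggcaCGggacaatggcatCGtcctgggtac
Basp1, chr15:25294236-25294415, minus strand: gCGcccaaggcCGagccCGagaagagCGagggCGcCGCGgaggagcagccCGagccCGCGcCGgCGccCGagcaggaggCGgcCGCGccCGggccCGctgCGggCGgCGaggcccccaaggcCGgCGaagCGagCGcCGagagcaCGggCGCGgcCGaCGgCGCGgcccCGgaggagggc
Xkr6, chr14:64438054-64438233, plus strand: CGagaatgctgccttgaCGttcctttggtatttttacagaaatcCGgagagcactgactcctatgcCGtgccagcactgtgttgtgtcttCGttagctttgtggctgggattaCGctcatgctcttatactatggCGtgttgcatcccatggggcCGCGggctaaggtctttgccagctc
Spnb4, chr7:28193639-28193818, minus strand: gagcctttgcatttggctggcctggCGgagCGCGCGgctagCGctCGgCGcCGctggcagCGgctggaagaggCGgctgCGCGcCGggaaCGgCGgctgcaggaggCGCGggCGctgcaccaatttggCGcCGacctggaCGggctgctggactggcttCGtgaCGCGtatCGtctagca
Tiam2, chr17:3518329-3518508, plus strand: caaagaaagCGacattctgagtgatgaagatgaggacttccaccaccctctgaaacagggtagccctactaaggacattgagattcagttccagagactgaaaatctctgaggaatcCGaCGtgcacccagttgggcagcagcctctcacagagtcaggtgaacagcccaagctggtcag
Sdr42e1, chr8:120187086-120187265, minus strand: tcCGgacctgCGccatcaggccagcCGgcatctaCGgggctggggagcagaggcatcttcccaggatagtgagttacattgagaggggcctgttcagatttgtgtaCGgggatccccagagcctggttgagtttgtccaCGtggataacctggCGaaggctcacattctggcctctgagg
Ttn, chr2:76582584-76582763, minus strand: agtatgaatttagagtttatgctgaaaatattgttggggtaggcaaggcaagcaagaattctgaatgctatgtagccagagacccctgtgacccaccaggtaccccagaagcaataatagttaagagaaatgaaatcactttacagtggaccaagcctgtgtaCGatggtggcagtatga

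The libraries hold 19313927 to 23839094 tags, which left a median of 15 H3K9ac, 16 13HH3, 12 7G8 and 12 input tags in an exon. Input gave 5 or fewer tags in 527 exons and none in 111. Of those 111, 99 lie in sequence in which under 10% of the 32-base words occur once in the genome, and 83 exons had no tag in any library. Over all exons 90.1% of such words were unique, as were 90.1% in the flanks. The H3K9ac library showed the TSSs of the stem cell genes Pou5f1, Nanog, Sox2, Esrrb and Zfp42 between 3.75 and 34.0 times input within 1 kb, and those of Alb, Myh6, Krt5 and Gfap, markers of other cell types, between 0.504 and 1.86 times. Tags are summed over a population of cells, so a mark in fewer cells and a weaker mark in every cell cannot be told apart.

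All 4 libraries, input included, had more tags in the exons than beside them. H3K9ac had 9.44 tags per kb per 10000000 tags in the exons and 5.39 in 1 kb on each side, a ratio of 1.75. The 13HH3 library had 8.44 and 4.55, a ratio of 1.85. The 7G8 library had 5.86 and 4.20, a ratio of 1.39. Input DNA had 7.34 and 4.85, a ratio of 1.51, which lies between those of the ChIP libraries. Divided by the ratio of input, the exons stood 1.16 times over their flanks for H3K9ac (95% interval 1.14 to 1.18) and 1.22 times for 13HH3 (1.20 to 1.25), but at 0.922 for 7G8 (0.906 to 0.937). The 2 antibodies against H3K14ac thus gave ratios on opposite sides of 1. In terms of level, the exons stood at 1.29, 1.15 and 0.798 times input and their flanks at 1.11, 0.939 and 0.866 times, for H3K9ac, 13HH3 and 7G8.

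The exons were next compared with intron DNA of the same composition. There were 582912 windows of 1 kb inside introns of protein-coding genes, over 5 kb from any TSS and free of annotated exons, with a median GC content of 41.9%. The tags expected in an exon were its input tags times the ChIP to input ratio of windows of its GC content, in steps of 1 percentage point. Summed over the exons, H3K9ac reached 0.899 of the expected tags (0.888 to 0.909), 13HH3 0.839 (0.829 to 0.850) and 7G8 0.811 (0.801 to 0.822). These intervals take the ratios of the windows as known and leave out the counting error of the windows. In steps of 5 percentage points the H3K9ac value was 0.944, outside its interval. GC-rich intron windows are scarce, and 302 exons fall in steps with fewer than 100 windows. The 425 windows of 60% GC or more also had only 2.60 input tags per kb, against 11.0 in exons of that composition. Among the 1970 exons below 55% GC the values were 1.01 for H3K9ac (0.990 to 1.02), 0.868 for 13HH3 (0.854 to 0.882) and 0.854 for 7G8 (0.839 to 0.868). Relative to input, both H3K14ac libraries, summed over the exons, were thus below intron DNA of the same GC content. Over all exons this direction rests on input. In tags alone, H3K9ac was there 1.37 times, 13HH3 1.16 times and 7G8 1.07 times the windows of the same GC content. Input itself was 1.31 times. Below 55% GC input was only 1.03 times. Both H3K14ac libraries then had fewer tags per kb than the windows at 30 to 40%, 40 to 45%, 45 to 50% and 50 to 55% GC. At 50 to 55% these were 9.43 against 9.67 for 13HH3 and 6.24 against 6.91 for 7G8. The H3K9ac value near 1 is a sum over exons that departed from it in both directions: it was 1.15 (1.06 to 1.24) at 30 to 40% GC, 1.18 (1.14 to 1.23) at 40 to 45%, 0.968 (0.940 to 0.996) at 45 to 50% and 0.965 (0.942 to 0.989) at 50 to 55%. The H3K14ac sums hid a difference by CpG content. At 50 to 55% GC, exons with a CpG ratio of 0.5 or more had 13HH3 at 1.14 (1.08 to 1.21) of the expected tags. Their 7G8 was at 1.085 (1.02 to 1.15). The other exons of that GC content had 0.848 and 0.795.

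The flanks were treated in the same way, since the surroundings of the exons may differ from other introns. For H3K9ac the flanks stood at 1.10 times their expected tags (1.08 to 1.11), above the exons between them. For 13HH3 and 7G8 the flanks stood at 0.833 and 0.859. With GC content taken into account on both sides, the exon over its flanks was 0.820 for H3K9ac (0.807 to 0.833), 1.01 for 13HH3 (0.991 to 1.03) and 0.944 for 7G8 (0.928 to 0.960). Below 55% GC the 3 ratios were 0.910 (0.890 to 0.931), 1.00 (0.978 to 1.02) and 0.990 (0.967 to 1.01). These intervals too leave out the counting error of the windows. The excess of 13HH3 over its flanks was thus not detectable once windows of the same GC content were used, and that of H3K9ac became a deficit. Input itself had 1.31 times the tags of windows of the same GC over all exons and 1.03 times below 55% GC, so in the GC-rich exons the background differed from that of the windows. Its part in these ratios was not tested.

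**Figure D1:**
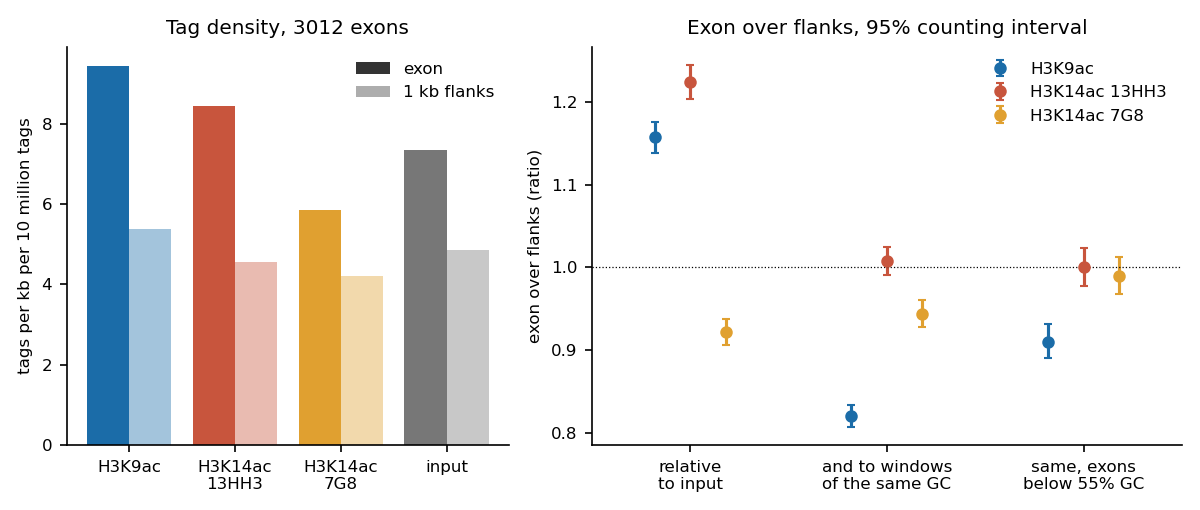
Left, tags per kb per 10000000 tags summed over the 3012 exons (full colour) and over 1 kb on each side (pale), for the 4 libraries. Right, the ratio of exon to flanks for the 3 ChIP libraries, relative to input, relative to input and intron windows of the same GC content, and the latter for the 1970 exons below 55% GC. Bars are 95% intervals of counting error and leave out that of the windows. Over all exons 13HH3 moves from 1.22 to 1.01, H3K9ac from 1.16 to 0.820 and 7G8 from 0.922 to 0.944. Below 55% GC the values are 1.00, 0.910 and 0.990. The ratio relative to input alone is not drawn for those exons.

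The step at the exon edge was followed in bins of 50 bp across the 1298 internal exons. Input rose over the upstream edge from 4.88 tags per kb at 125 bp outside to 8.35 at 175 bp inside, while GC content went from 42.8% to 52.1%. Over input, the 20 bins outside this edge ranged from 0.874 to 1.05 for 13HH3 and the 5 inside from 1.09 to 1.28. At the downstream edge the ranges were 0.822 to 1.04 outside and 1.10 to 1.21 inside, so at neither edge did the bin values overlap. The counting intervals of single bins did. At the upstream edge, the highest bin outside had 0.941 to 1.18 and the lowest inside 0.986 to 1.195. For H3K9ac the ranges of bin values overlapped. They were 1.02 to 1.30 outside and 1.21 to 1.32 inside the upstream edge, and 1.01 to 1.22 outside and 1.21 to 1.33 inside the downstream edge. For 7G8 the ranges were 0.796 to 0.994 outside and 0.724 to 0.835 inside the upstream edge, and 0.744 to 0.896 outside and 0.722 to 0.838 inside the downstream edge, so they overlap at both. For internal exons alone the exon over its flanks, relative to input, was 1.09 for H3K9ac (1.06 to 1.11), 1.20 for 13HH3 (1.17 to 1.23) and 0.910 for 7G8 (0.886 to 0.933). For exons with the end of the coding sequence the values were 1.23 (1.20 to 1.26), 1.25 (1.22 to 1.28) and 0.943 (0.921 to 0.966). With GC content taken into account on both sides, the internal exons had 0.794 for H3K9ac (0.775 to 0.813), 1.01 for 13HH3 (0.982 to 1.03) and 0.938 for 7G8 (0.914 to 0.962).

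**Figure D2:**
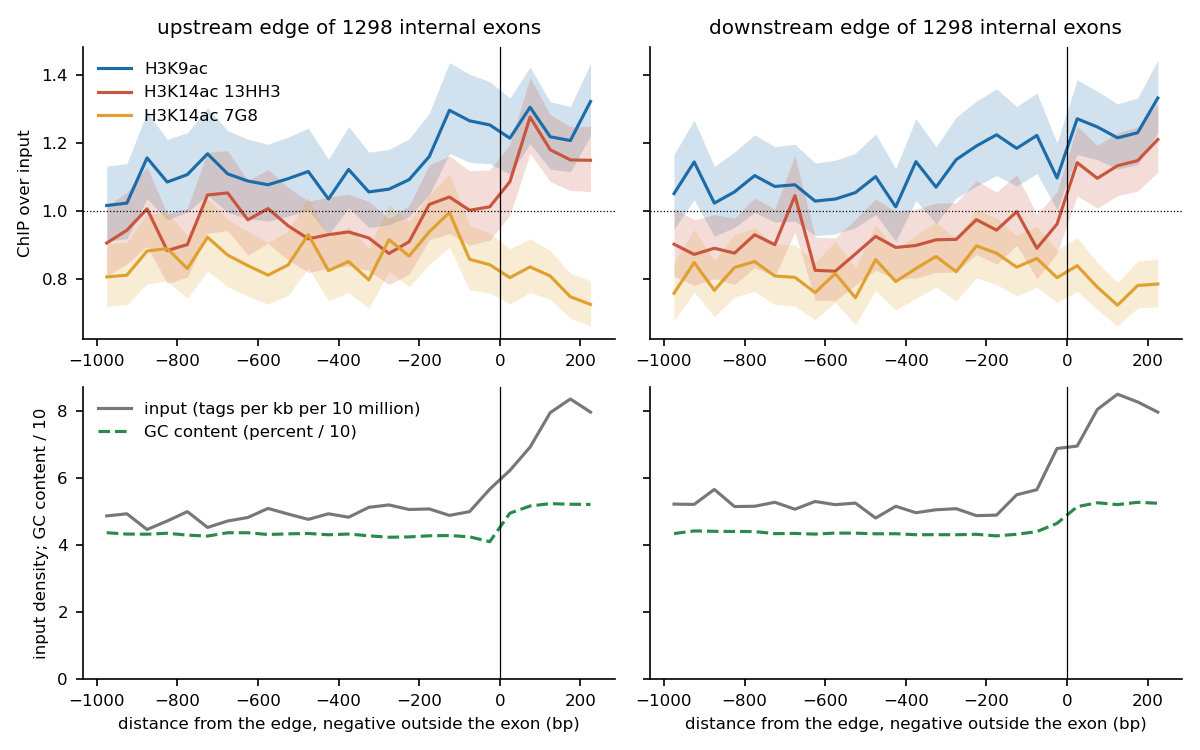
Tags in 50 bp bins around the upstream and downstream edges of the 1298 internal exons, oriented by the strand of the gene, from 1000 bp outside (negative) to 250 bp inside. The upper row gives ChIP over input with its 95% counting interval as a band, and the lower row the input density and the GC content divided by 10. Input rises inside the exon together with GC content. The 13HH3 bin values inside lie above those outside at both edges, though intervals of single bins overlap, and the bin values of H3K9ac and 7G8 overlap. The upper row is not adjusted for GC content.

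The ratio over input followed the composition of the exon, in another way for each antibody. H3K9ac stood at 1.03 times input in the 194 exons of 30 to 40% GC, 0.949 in the 614 of 45 to 50% and 1.95 in the 403 of 60% or more. 13HH3 rose from 0.666 in the first of these classes through 1.03 to 1.32. 7G8 fell from 0.982 through 0.825 to 0.754. The intron windows showed the same order for 13HH3, from 0.838 at 30 to 40% GC to 1.21 at 45 to 50% and 1.33 at 50 to 55%. In exons of 40 to 45% GC, H3K9ac was 1.07 times input (1.03 to 1.11) against 0.902 in windows of that composition, and 13HH3 was 0.884 (0.848 to 0.921) against 1.03. Below 45% GC the 2 marks thus lay on opposite sides of intron DNA of the same GC content.

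**Figure D3:**
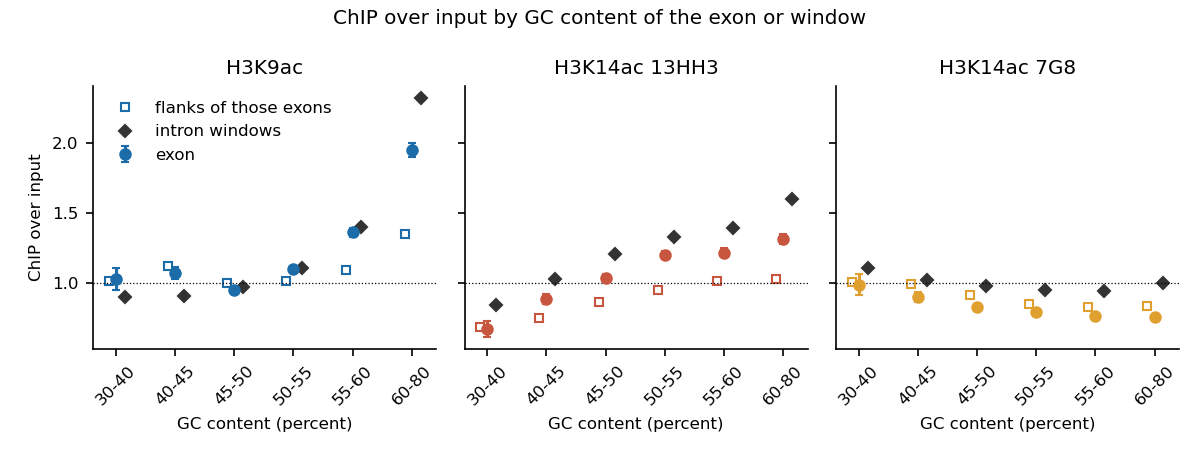
ChIP over input by GC content, for the exons (filled circles with 95% counting intervals), the flanks of the same exons (open squares, grouped by the GC content of the exon) and intron windows of 1 kb (diamonds), in 1 panel for each antibody. H3K9ac exons lie above the windows below 45% GC and below them from 45% on, 13HH3 exons lie below the windows in every class, and 7G8 falls with GC content up to 60%.

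The ratio over input also followed CpG content. H3K9ac stood at 0.858 times input in the 825 exons with an observed to expected CpG ratio under 0.25, at 1.17 in the 1629 between 0.25 and 0.5, at 1.84 in the 458 between 0.5 and 0.75, and at 3.03 (2.87 to 3.21) in the 100 above 0.75. Those 100 exons have a median GC content of 67.5%, and their flanks stood at 1.885 times input. Against windows of the same GC content their H3K9ac was 1.01 of the expected tags (0.953 to 1.07). Only 425 windows reach 60% GC, with sparse input, and the interval leaves out their counting error. For 13HH3 the same classes of CpG ratio gave 0.872, 1.15, 1.37 and 1.75 times input, and for 7G8 0.754, 0.761, 0.932 and 1.04. Among the 694 exons of 50 to 55% GC, whose GC content is nearly equal, the 124 with a CpG ratio of 0.5 or more had H3K9ac at 1.55 times their flanks relative to input (1.43 to 1.67), and the other 570 at 0.993 (0.957 to 1.03). For 13HH3 the values were 1.59 (1.47 to 1.72) and 1.21 (1.17 to 1.26), and for 7G8 1.23 (1.13 to 1.33) and 0.881 (0.848 to 0.916). Each antibody thus had more tags over the CpG-rich exons than over the others, relative to input and flanks, and the intervals did not overlap. Against windows of the same GC content, which number 35930 at 50 to 55%, H3K9ac differed as well. It was 1.405 of the expected tags (1.33 to 1.49) in the 124 exons and 0.884 (0.860 to 0.908) in the 570. Across the 3012 exons of these single libraries, the log2 ratio over input had a Pearson r with the CpG ratio of 0.42 for H3K9ac, 0.32 for 13HH3 and 0.10 for 7G8.

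The state of the host gene was read from 1 of its TSSs, that with the most H3K9ac tags within 1 kb. It lies over 5 kb away and shares no tags with the exon. Genes with more annotated TSSs thus had more chances of a call. A host TSS was called when H3K9ac within 1 kb was at least 2 times input with the exact interval above 1, and 2109 exons had such a host. Their median log2 H3K9ac over input was 0.22 (quartiles -0.39 and 0.91), against -0.26 (-1.07 and 0.20) in the 903 others, a difference of 0.49 between medians. With the most upstream TSS of the host in its place the difference was 0.491. The value of -0.26 is that of an exon with equal H3K9ac and input tags, which 144 of the 903 had, 88 of them with 0 tags in both. Without the exons that lack both, the medians were 0.22 and -0.48, a difference of 0.70, and among exons with at least 50% unique words 0.22 and -0.44. The quartile ranges overlap widely. The exons of called hosts were also richer in GC, with medians of 52.9% and 47.9%. Within 50 to 55% GC, H3K9ac stood at 1.18 times input (1.15 to 1.21) in 530 exons of called hosts and 0.780 (0.736 to 0.825) in 164 others. 13HH3 differed less, at 1.23 (1.20 to 1.26) and 1.10 (1.04 to 1.16), and 7G8 gave 0.795 (0.772 to 0.818) and 0.788 (0.744 to 0.833). The flanks moved with the exons: H3K9ac in the flanks was 1.11 and 0.697 times input in the same classes. Below 55% GC, H3K9ac over its flanks with GC content taken into account was 0.896 (0.873 to 0.919) for called hosts and 0.887 (0.847 to 0.930) for others, so the exon and its surroundings differed alike between the host classes.

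The level was also followed by distance from the TSS. H3K9ac went from 1.40 times input at 5 to 10 kb (1067 exons) to 1.33 at 10 to 20 kb, 1.13 at 20 to 50 kb and 1.15 (1.11 to 1.19) in the 301 exons beyond 50 kb. In the same order of classes 13HH3 was 1.12, 1.17, 1.11 and 1.31 (1.26 to 1.36), and 7G8 was 0.785, 0.798, 0.776 and 0.891 (0.858 to 0.925). Neither rose steadily with distance. Relative to flanks and input, the exons beyond 50 kb had the highest ratios of the 4 classes, 1.36 for H3K9ac (1.29 to 1.43), 1.40 for 13HH3 (1.33 to 1.47) and 0.993 for 7G8 (0.942 to 1.05). For H3K9ac the flanks there were low, at 0.848 times input against 1.23 at 5 to 10 kb. Against windows of the same GC content, H3K9ac was 0.829 of the expected tags beyond 50 kb and 0.929 at 5 to 10 kb. 13HH3 was 0.952 and 0.801, and 7G8 0.912 and 0.7945. The 5975 long coding exons within 5 kb of a TSS had H3K9ac at 1.72 times input, but at 0.991 of their flanks (0.980 to 1.00), since the flanks there reached 1.74 times input.

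**Figure D4:**
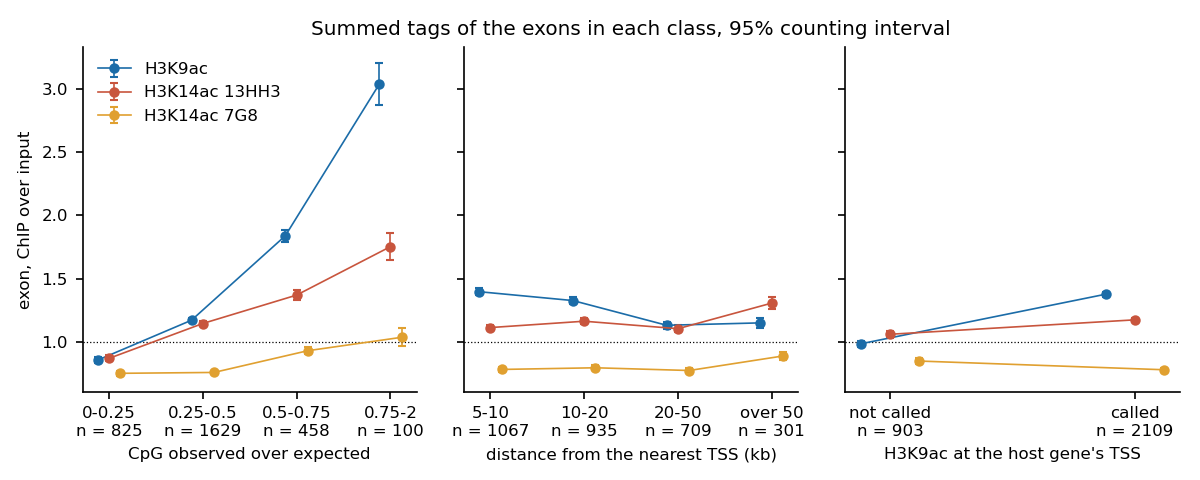
ChIP over input of the exons summed within classes of CpG ratio, of distance from the nearest TSS and of H3K9ac at the TSS of the host gene, with the number of exons under each class and 95% counting intervals. H3K9ac rises from 0.858 to 3.03 over the CpG classes and differs between host classes (0.986 and 1.38), while 7G8 stays between 0.754 and 1.04 throughout.

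Single exons were called when their tags per 10000000 were at least 2 times those of input and the exact 95% interval of the ratio lay above 1. H3K9ac called 498 of the 3012 exons (16.5%), against 5.90% of the intron windows and 27.5% of the long exons within 5 kb of a TSS. The rate of windows of the same GC content, applied to the exons, would give 14.5%. 13HH3 called 288 exons (9.56%), against 5.79% of windows, 10.7% of exons near a TSS and 12.98% by GC content. 7G8 called 55 exons (1.83%), against 3.57%, 3.13% and 3.90%. With 2 times the GC-expected tags as the limit, in place of 2 times input, the counts were 230 for H3K9ac, 88 for 13HH3 and 65 for 7G8. Over all exons, the share of H3K9ac was thus close to that of windows of its GC content, and the shares of both H3K14ac libraries were below theirs. Classes of GC content differed. At 60% GC or more, H3K9ac called 47.4% of exons against 22.1% of windows, and 13HH3 20.1% against 10.8%. Only 425 windows, with sparse input, have that composition. H3K9ac was below the windows at 45 to 55% GC and above them in the other classes. 13HH3 was below them in every class under 60% GC, and 7G8 in every class. Exons at most 0.5 times input with the interval below 1 numbered 248 for H3K9ac (8.23%, against 7.53% of windows), 108 for 13HH3 (3.59%, against 3.68%) and 374 for 7G8 (12.4%, against 3.45%). The fewest tags in a called exon were 10, 6 and 8 in the 3 libraries, and windows have fewer tags than exons, so these shares depend on depth as well.

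The called exons of the 3 antibodies were shared in part. Of the 498 and 288 exons called for H3K9ac and 13HH3, 181 were called for both, which is 36.4% of the first and 62.9% of the second set. Of the 55 called for 7G8, 41 (74.6%) were among those of H3K9ac and 42 (76.4%) among those of 13HH3, and 34 exons were called for all 3. None of the antibodies called 2401 exons. All ratios use the same input library, so these overlaps share its counting error. The flanks were called too beside 175 of the 498 H3K9ac exons (35.1%), 39 of the 288 13HH3 exons (13.5%) and 10 of the 55 7G8 exons (18.2%). Over all 3012 exons the flanks were called beside 10.96%, 3.82% and 3.15%. The median GC content of the called exons was 58.1%, 55.9% and 52.2%.

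**Figure D5:**
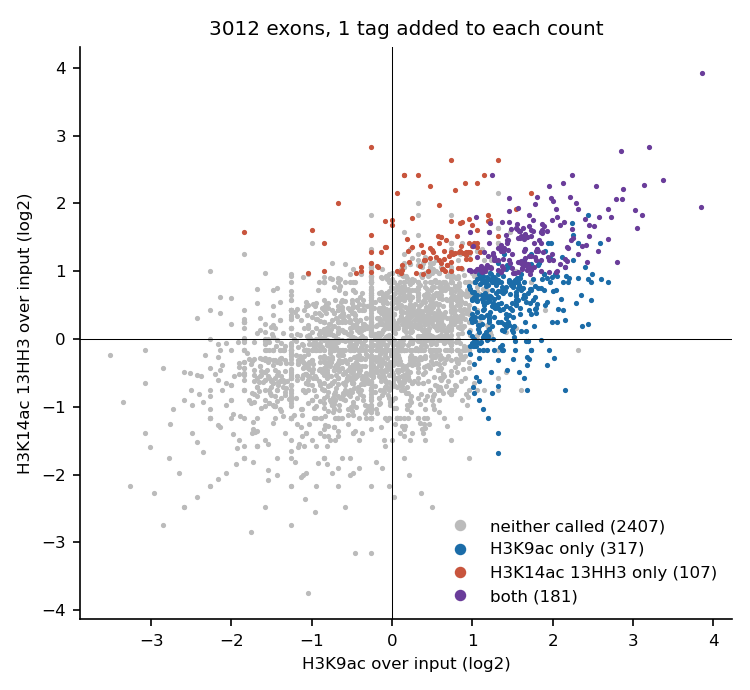
Each point is 1 of the 3012 exons, with H3K9ac over input on the horizontal and 13HH3 over input on the vertical axis, both log2 ratios of tags per 10000000 after adding 1 tag to each count. Colours give the exons called for H3K9ac only (317), 13HH3 only (107), both (181) or neither (2407); the lower right holds exons with H3K9ac and little 13HH3.

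The 8 exons with the highest H3K9ac over input, ranked by the lower bound of the interval, measured 635 to 1721 bp, and 6 of them held the end of the coding sequence. In Marveld3, which encodes a tight junction protein, a 635 bp exon had 51 H3K9ac, 12 13HH3, 21 7G8 and 2 input tags. Its H3K9ac ratio of 21.2 has an interval of 5.59 to 180.2, and it was called for all 3 antibodies. Chst5, a carbohydrate sulfotransferase gene, had 158, 55, 64 and 15 tags in 1185 bp, with H3K9ac at 8.78 times input (5.16 to 16.1), 13HH3 at 3.28 (1.82 to 6.24) and 7G8 at 3.46 (1.95 to 6.53). Its exon lies 10498 bp from the nearest TSS and has a GC content of 62.9%. Both exons thus carried more than input in every ChIP library, with H3K9ac highest.

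Basp1, which encodes a membrane protein of growth cones, had 34 H3K9ac, 33 13HH3, 4 7G8 and 1 input tag in an exon of 74.5% GC, 48855 bp from a TSS. With 1 input tag its ratios are loose, and the lower bounds were 4.75 for H3K9ac and 4.93 for 13HH3. Prdm13, a zinc finger regulator of the dorsal neural tube, had 165, 88, 37 and 18 tags, with H3K9ac at 7.64 times input (4.68 to 13.2), 13HH3 at 4.37 (2.61 to 7.71) and 7G8 at 1.67 (0.924 to 3.11). Scrt2, a neuronal transcriptional repressor, had 72, 27, 25 and 6 tags, and H3K9ac at 10.00 times input (4.38 to 28.1). Neither the Prdm13 nor the Scrt2 exon had a called host TSS. Zfp668, a zinc finger gene, had 74, 33, 24 and 5 tags, the scavenger receptor gene Scarf2 had 73, 37, 16 and 6, and an exon of the beta spectrin gene Spnb4 had 91, 26, 23 and 10. All 3 were called for H3K9ac and 13HH3, with H3K9ac at 12.3, 10.1 and 7.58 times input. H3K9ac and input tags in 1 kb on each side were 43 and 13 for Marveld3, 74 and 9 for Chst5. They were 63 and 12 for Basp1, 66 and 12 for Prdm13, and 179 and 22 for Scrt2, whose exon measures 800 bp. For Zfp668, Scarf2 and this Spnb4 exon they were 141 and 32, 63 and 26, and 44 and 13. H3K9ac tags thus outnumbered input tags beside each of these 8 exons as well.

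The highest 13HH3 ratios fell partly on other genes. Kbtbd11 had 133 13HH3 tags against 24 of input in 1899 bp, 4.95 times input (3.19 to 7.996), with H3K9ac at 6.01 (3.91 to 9.63) and 7G8 at 2.09 (1.29 to 3.51). Tbr1, the gene of a T-box factor of cortical neurons, had 13HH3 at 5.85 times input (2.88 to 13.4) and H3K9ac at 5.18 (2.55 to 11.9). Jph2, which encodes a protein that joins the plasma membrane to the sarcoplasmic reticulum, had 5.49 (2.45 to 14.5) and 4.88 (2.17 to 12.9), while its 7G8 was 0.926 (0.293 to 3.00). In Bnc2, a zinc finger gene whose 1970 bp exon lies 135462 bp from any TSS, 81 13HH3 tags stood against 32 of H3K9ac, 19 of 7G8 and 15 of input. Its 13HH3 was 4.82 times input (2.76 to 9.01), and its H3K9ac at 1.78 (0.935 to 3.53) was not called. Met, the hepatocyte growth factor receptor gene, had 41 13HH3 and 19 H3K9ac tags against 6 of input, or 6.10 (2.58 to 17.6) and 2.64 (1.01 to 8.07) times. Txndc11, a thioredoxin domain gene, had 22 and 25 against 2.

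The exons with the highest 7G8 ratios were also high for the other antibodies, with 1 exception. All 3 ratios divide by the same input tags, so sparse input favours an exon in each of them. How much of the agreement comes from this was not tested. Xkr6 had 47 7G8 tags against 8 of input, 4.76 times (2.23 to 11.7), with H3K9ac at 5.21 and 13HH3 at 3.35. Bdnf, the brain-derived neurotrophic factor gene, whose coding sequence lies in 1 exon, had 25 against 4, 5.06 times (1.75 to 20.02). Prokr2, a prokineticin receptor gene, had 29 against 6, 3.92 times (1.60 to 11.5). Rest, which encodes a repressor of neuronal genes, had the deepest counts of this group, with 168 H3K9ac, 118 13HH3, 93 7G8 and 32 input tags in 2279 bp. Its ratios were 4.37 (2.98 to 6.60), 3.29 (2.21 to 5.03) and 2.36 (1.56 to 3.64), so all 3 intervals lay above 1. Naip6, of a family of near-identical inflammasome sensor genes, had 7G8 at 2.87 (1.52 to 5.78) and 13HH3 at 3.02 (1.60 to 6.12) but H3K9ac at 1.54 (0.753 to 3.29), and its tags may be shared with its copies.

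The ratio of 13HH3 to H3K9ac does not involve input. It was lowest, by its upper bound, in another exon of Spnb4, where 68 H3K9ac and 7 13HH3 tags gave 0.110 (0.0428 to 0.240) beside 24 of 7G8 and 22 of input. Zfp771 had 84 and 16 tags, a ratio of 0.204 (0.112 to 0.351), and Pura, the gene of a single-stranded nucleic acid binding protein, had 110 and 22, a ratio of 0.214 (0.129 to 0.341). Nsd1, which encodes an H3K36 methyltransferase, had 125 and 27 tags in 2560 bp, a ratio of 0.232 (0.147 to 0.353), at 33443 bp from any TSS and a GC content of 44.96%. In 1 kb on each side the 2 counts were 56 and 24 for that Spnb4 exon and 142 and 43 for Zfp771. They were 105 and 17 for Pura and 101 and 19 for Nsd1. H3K9ac tags thus outnumbered those of 13HH3 beside these exons too. At the other end stood Dsg1b, a desmosomal cadherin gene, with 1 H3K9ac and 19 13HH3 tags, Sdr42e1, a dehydrogenase family gene, with 1 and 17, and Fam5c with 3 and 24. The ratio of Fam5c, 8.58, has an interval of 2.60 to 44.5. In the flanks the 2 counts were 7 and 6 for Dsg1b, 17 and 21 for Sdr42e1, and 3 and 8 for Fam5c. Of these 3 only Dsg1b was called for 13HH3 over input, at 3.39 (1.23 to 11.6). Sdr42e1 had 13HH3 at 0.843 times input (0.408 to 1.73) and H3K9ac at 0.0463 (0.00111 to 0.293).

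The lowest ratios over input are ranked on a ratio that has input below the line, so dense input favours an exon here. Tiam2, a Rac exchange factor gene, had 62 input tags in 614 bp, or 52.3 per kb per 10000000, against 10 H3K9ac, 20 13HH3 and 15 7G8 tags, with ratios of 0.134, 0.288 and 0.196. Birc6, an inhibitor of apoptosis gene, had 44 input tags against 15, 6 and 9, and Sos1, a Ras exchange factor gene, had 33 against 13, 8 and 4. These 3 exons lie on chromosome 17, where intron windows of the 3 ChIP libraries stood at only 0.737, 0.720 and 0.696 of their ratio over all chromosomes. Parm1 had 26 input tags against 3, 9 and 8, and Srfbp1 had 20 against 12, 3 and 2. Lrtm2 had 18 input and 11 13HH3 tags but 0 of 7G8, and Oog4, an oocyte gene, had 11 input and 0 13HH3 tags. For a count of 0 the upper bounds of the ratio are 0.184 and 0.356. In Mll2, which encodes an H3K4 methyltransferase, 46 input tags stood against 21, 23 and 6, and over its 6 exons H3K9ac ranged from 0.380 to 0.920 and 13HH3 from 0.447 to 0.678 times input.

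The 10 longest exons are described next. Ttn, the gene of the sarcomere protein titin, has 14 of the exons, and its longest, 17106 bp, had 133 H3K9ac, 177 13HH3, 188 7G8 and 145 input tags. H3K9ac was 0.764 times input (0.599 to 0.974), 13HH3 1.09 (0.870 to 1.37) and 7G8 1.05 (0.841 to 1.31). Cmya5, which encodes a protein of the muscle costamere, was the only 1 of the 10 longest that was called, with 192, 146, 164 and 74 tags in 9310 bp. Its H3K9ac was 2.16 times input (1.65 to 2.87), and its 13HH3 and 7G8 at 1.76 (1.32 to 2.36) and 1.80 (1.36 to 2.40) were under the limit of 2 but above 1. Muc5b, a gel-forming mucin gene, had the lowest H3K9ac ratio to input among those with input tags, with 33 tags against 85 of input, 0.323 times (0.210 to 0.489).

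Mki67, the proliferation marker, had H3K9ac at 1.49 times input (1.01 to 2.22) and 13HH3 at 0.852 (0.541 to 1.34). Zfp292 had 1.26 (0.912 to 1.76) and 0.809 (0.557 to 1.17), and Apc, a component of the beta-catenin destruction complex, had 1.18 (0.863 to 1.61) and 0.966 (0.694 to 1.35). Prune2 had H3K9ac at 0.517 (0.370 to 0.716), 13HH3 at 0.893 and 7G8 at 0.551 (0.399 to 0.757). The exons of Gm4070 and Gvin1, 2 members of a family of large interferon-induced GTPases with near-identical sequence, had 3 tags and 0 tags over all 4 libraries, so nothing can be read from them.

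Lists of genes by function were described by their medians and calls. The H3K9ac medians of the lists ranged from -1.14 to 0.62 and those of 13HH3 from -0.75 to 0.25. Over all exons the median log2 ratio to input was 0.02 for H3K9ac, 0.06 for 13HH3 and -0.30 for 7G8, and the shares called were 16.5%, 9.56% and 1.83%. The 72 exons of genes of chromatin and transcription regulators had an H3K9ac median of 0.41, and 14 of them (19.4%) were called, near the 16.5% of all exons, beside 4 (5.56%) for 13HH3 and 1 (1.39%) for 7G8. The list is led in length by Ankrd11, a chromatin regulator gene, with H3K9ac at 1.15 (0.853 to 1.56), Rai1, a transcriptional regulator gene, at 1.53 (1.26 to 1.86), and Ash1l, the gene of another histone methyltransferase, at 1.98 (1.35 to 2.94). The 39 exons of genes of DNA repair, replication and mitosis had a median of 0.62 with 7 called (17.95%, against 16.5% of all exons), and 13HH3 called 1 (2.56%, against 9.56%). In Aspm, a spindle pole gene, H3K9ac was 1.58 (1.10 to 2.30) and 13HH3 0.684 (0.431 to 1.08), and in the kinetochore gene Casc5 they were 1.75 (1.12 to 2.80) and 0.744 (0.420 to 1.31). These exons have a median GC content of only 45.8%, and summed H3K9ac was 1.41 times that expected from windows of the same GC, whereas 13HH3 was 0.826 of it. Their H3K9ac over flanks and input was 1.02, so their flanks were as high.

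Of the 13 exons of mES cell regulator genes, 5 were called for H3K9ac (38.5%, against 16.5% of all exons), 2 for 13HH3 (15.4%, against 9.56%) and 0 for 7G8 (against 1.83%). Sall1, a zinc finger factor gene, was called for both marks, with H3K9ac at 2.19 (1.51 to 3.23) and 13HH3 at 2.03 (1.39 to 3.03). Its relative Sall3 had 1.81 (1.34 to 2.46) and 1.14 (0.814 to 1.59), and Tet1, which encodes a methylcytosine dioxygenase, had 1.33 (0.789 to 2.29) and 1.11 (0.633 to 1.96). The 82 exons of muscle, matrix and cytoskeletal scaffold genes, which include Ttn, Cmya5 and Muc5b, had an H3K9ac median of -0.44 with 12 called (14.6%), and a 13HH3 median of 0.02 with 9 called (11.0%). The 59 exons of neuronal and synaptic genes had -0.42 with 12 called (20.3%), and 0.12 with 8 called (13.6%). In both lists the H3K9ac median was thus below that of all exons, while the share called lay around the 16.5% of all exons. In Ank2, the ankyrin-B gene, H3K9ac was 0.628 (0.434 to 0.903) and 13HH3 1.69 (1.26 to 2.27), in the presynaptic scaffold gene Pclo 0.604 (0.385 to 0.941) and 0.911 (0.607 to 1.37), and in Zfp804b 0.476 (0.241 to 0.911) and 1.05 (0.617 to 1.81).

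The 232 exons of zinc finger genes, most of which hold their arrays of fingers in 1 long last exon, had an H3K9ac median of 0.41 with 62 called (26.7%, against 16.5% of all exons). The 19 called for 13HH3 (8.19%) and the 5 for 7G8 (2.16%) were near the 9.56% and 1.83% of all exons. Summed H3K9ac was 1.13 times that expected from windows of the same GC and 13HH3 0.859 of it. Hivep1, with H3K9ac at 0.787 (0.558 to 1.11) and 13HH3 at 1.36 (1.00 to 1.85), and Zfhx3, with 1.43 (1.06 to 1.95) and 1.39 (1.02 to 1.91), are the longest after Zfp292. Of the 185 exons of vomeronasal receptor genes 0 were called for H3K9ac and 7G8 and 1 (0.541%) for 13HH3, but only 43.3% of their words are unique and input gave only 2.37 tags per kb per 10000000. Of these, Vmn2r2, Vmn2r3 and Vmn2r4 had 2, 5 and 0 H3K9ac tags against 2, 3 and 5 of input. The 15 exons of olfactory receptor genes had no call, with an H3K9ac median of -1.14. The longest, Olfr212, Olfr287 and Olfr78, had 5, 3 and 7 H3K9ac tags against 12, 6 and 23 of input. In these genes of sensory neurons H3K9ac summed to 0.579 and 0.467 times input, 13HH3 to 0.824 and 0.682 times and 7G8 to 1.11 and 0.925 times.

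Across the 3012 exons the tag densities of the libraries moved together, as log2 of tags per kb per 10000000 plus 1. Pearson r was 0.78 between H3K9ac and 13HH3 (Spearman rho 0.73), 0.71 between H3K9ac and 7G8 and 0.77 between 13HH3 and 7G8. Input alone gave r of 0.65, 0.73 and 0.66 with them, and GC content 0.65, 0.69 and 0.46, so a large part of what the densities share is also shared with input and GC content. After division by input, H3K9ac of an exon had r of 0.51 with its flanks and 0.32 with the TSS of its host, 13HH3 0.31 and 0.12, and 7G8 0.35 and 0.00. Exons of 1 gene spanned a range of ratios, but these extremes have no interval and were not separated from counting error. The 14 of Ttn ranged from 0.104 to 1.27 times input for H3K9ac, with 1 to 133 tags each, and the 6 of Pclo from 0.430 to 3.25.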

How the data were processed

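The authors sequenced single-end reads, mapped them with ELAND allowing 1 mismatch, and deposited BED files of mapped reads for 4 libraries of mES cells. These positions are not normalized. A deposited score column holds 1 throughout and was ignored; a tag is a line. The peak lists and the expression data of the study were not used here. Tag ends lay within the chromosomes of NCBIM37 (mm9). Tags at a repeated position and strand were absent from 3 files and were removed from that of 13HH3 (738711 tags, 3.30%).

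Tags were placed 100 bp downstream of their 5′ ends, and densities are per 10000000 tags kept. Exons, flanks of 1 kb and intron windows were counted as described in the report. An exon over its flanks, relative to input, has an interval by the normal approximation on the log scale of the 4 counts. A ratio to input has an exact conditional binomial interval, at 95%. Intervals of ratios to the GC-expected tags leave out the counting error of the windows. Medians of log2 ratios used 1 added tag. PCR copies are not independent molecules, so intervals cover counting error only. No test was made, since each antibody has 1 library. The calculations were tested on simulated counts. Exons named are the 10 longest, for each ChIP library the 8 with the highest lower bound and the 3 with the lowest upper bound of the ratio to input, the 4 at each end of the 13HH3 to H3K9ac ratio, and the 3 longest of each gene list. A few genes that these rules name are not reported here. The exons, lists and comparisons were chosen with earlier results of these data known. Python 3.11.15, numpy 2.4.6, scipy 1.17.1, pandas 2.3.3 and numba 0.67.0 were used.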

Additional observations from a re-analysis of the deposited data

How the results depend on the processing

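Of 78 alternative values, 46 stayed within the limits set for them, 28 moved and 4 reversed. No paired analysis was possible because each antibody has 1 library. The exon over its flanks relative to input became 1.13 for H3K9ac and 1.20 for 13HH3 with the 5′ ends not moved, 1.05, 1.06 and 0.964 (7G8) with whole exons in place of coding parts, which also took in more exons (9423), 1.09 and 1.20 for internal exons, and 1.03 and 1.17 as a median over exons. For 13HH3 it was 1.25 beyond 10 kb from a TSS and 1.25 with all tags kept, and for 7G8 0.901 with exons left out of the flanks. Over all exons, the ratio to the GC-expected tags reversed without input, to 1.37 for H3K9ac, 1.16 for 13HH3 and 1.07 for 7G8. Input itself had 1.31 times the tags of windows of the same GC. The ratio to the GC-expected tags without input was not taken below 55% GC. With input, it was 0.944 for H3K9ac and 0.861 for 13HH3 in steps of 5 percentage points. Chosen after seeing the data, the limit of 55% GC turned H3K9ac to 1.01 and gave 0.868 for 13HH3 and 0.854 for 7G8. Exon over flanks with GC content taken into account, also chosen then, moved for H3K9ac to 0.910 below that limit, 0.794 for internal exons and 0.855 in steps of 5 points, for 13HH3 to 1.03 in such steps, and for 7G8 to 0.990 below the limit. With 2 times the GC-expected tags as the limit, 230 exons were called for H3K9ac and 88 for 13HH3. The difference in median log2 H3K9ac by host TSS was 0.58 beyond 10 kb and 0.50 with 0.5 tags added and, chosen after seeing the data, 0.70 without exons that lack H3K9ac and input tags, 0.66 with at least 50% unique words and 0.47 without repeated families. The median of 12 input tags limits single exons, and 302 exons have few windows of their GC content.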

Other observations

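The ratio of ChIP to input in intron windows, relative to all chromosomes, was above 1 in all 3 ChIP libraries on 9 of the 19 chromosomes and below 1 in all 3 on 7, while on the other 3 the libraries lay on both sides. It was 0.737 for H3K9ac, 0.720 for 13HH3 and 0.696 for 7G8 on chromosome 17, and 1.26, 1.27 and 1.26 on chromosome 12. The 3 ratios share 1 input library, and the cause was not tested. With the input scaled on each chromosome, chosen after seeing the data, 469 exons (15.6%) were called for H3K9ac, 266 (8.83%) for 13HH3 and 54 (1.79%) for 7G8. Of these, 428, 225 and 39 were also called without that scaling. The shares of intron windows called with it were 5.71%, 5.52% and 3.39%.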
